A study of Mus musculus with 13 samples.

Results

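The genes described here are Hpgd, which encodes 15-PGDH, the enzyme that inactivates prostaglandin E2, and 9 further genes of the same pathway. They were chosen by name for their role in making, moving, sensing or degrading this lipid, and all 10 stood in each of the 13 columns of a table of 24015 genes. The study measured RNA of whole quadriceps muscle from C57BL/6 mice, to ask how muscle differs with age and after inhibition of 15-PGDH. Levels are TPM, which give each gene's part of all transcripts of its library, corrected for transcript length. Of the 6 libraries of batch 2, 3 came from aged mice dosed with SW033291, which inhibits 15-PGDH, at 5 mg/kg, and 3 from aged mice on vehicle. Of the 7 libraries of batch 1, 3 came from aged and 4 from young mice, all on vehicle. Aged mice were labelled as older than 24 months and young mice as 3 months old. In all 4 groups an injection into the abdominal cavity was given every day for 4 weeks, and the vehicle was a mix of ethanol, Cremophor EL and dextrose water. The labels name no allele, transgene or sex for any group, and young or treated libraries each exist in 1 batch only. Whole lysates mix muscle fibres with all other cells of the tissue, so fewer cells of a type and less RNA per cell cannot be told apart.

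Prostaglandin E2 is made from arachidonic acid by a cyclooxygenase (Ptgs1, Ptgs2) followed by a prostaglandin E synthase (Ptges, Ptges2, Ptges3). It leaves cells through carriers such as Abcc4, re-enters them through Slco2a1, and is then oxidised by 15-PGDH to a keto form that Ptgr1 reduces further. Outside cells it acts on the receptors encoded by Ptger1 to Ptger4, of which the products of Ptger2 and Ptger4 raise cyclic AMP, and in muscle it is known as a signal to the muscle stem cells that repair fibres.

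Hpgd, Ptgr1 and Abcc4 are the members with at least 1 comparison in which the groups did not overlap, and their promoters are shown so that the letters before each start can be compared. The RefSeq table of build GRCm38.p6 holds a promoter, from 250 bases before to 50 bases after a start, for 9 of the 10 members. It has 1 promoter for Hpgd (chr8:56294302-56294601, plus strand), 1 for Ptgr1 (chr4:58987029-58987328, minus strand) and 2 for Abcc4, of which the one with more GC is shown (chr14:118706170-118706469, minus strand). Each runs 5′ to 3′ in the direction of the gene, and capitals mark the E-box CANNTG.
Hpgd: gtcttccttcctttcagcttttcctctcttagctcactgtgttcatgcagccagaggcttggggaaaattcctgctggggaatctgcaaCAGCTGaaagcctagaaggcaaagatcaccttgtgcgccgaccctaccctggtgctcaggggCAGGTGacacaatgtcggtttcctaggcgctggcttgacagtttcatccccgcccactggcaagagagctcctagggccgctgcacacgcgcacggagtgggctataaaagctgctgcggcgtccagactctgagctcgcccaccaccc
Ptgr1: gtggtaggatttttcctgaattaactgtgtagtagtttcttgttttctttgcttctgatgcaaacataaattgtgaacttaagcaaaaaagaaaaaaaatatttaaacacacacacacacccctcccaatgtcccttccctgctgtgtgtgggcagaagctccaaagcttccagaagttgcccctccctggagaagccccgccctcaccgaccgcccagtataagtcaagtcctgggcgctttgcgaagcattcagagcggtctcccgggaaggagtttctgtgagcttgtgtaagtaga
Abcc4: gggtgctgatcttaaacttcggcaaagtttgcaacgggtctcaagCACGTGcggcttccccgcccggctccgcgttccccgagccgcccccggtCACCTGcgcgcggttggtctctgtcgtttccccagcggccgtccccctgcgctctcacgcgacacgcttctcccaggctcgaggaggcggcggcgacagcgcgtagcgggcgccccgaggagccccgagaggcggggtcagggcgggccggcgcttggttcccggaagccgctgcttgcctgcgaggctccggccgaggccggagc
The Hpgd promoter holds 2 E-boxes, which begin 161 and 99 bases before the start, 1 GGGCGG box 50 bases before it, and TATAAA at base 5 of the transcript. The Ptgr1 promoter holds no CANNTG and 2 GGGCGG boxes, 52 and 39 bases before the start, and the Abcc4 promoter shown holds 2 E-boxes and 3 GGGCGG boxes. Both strands were searched, and none of these matches overlaps another. Among 32851 promoters of the same length, 72.3% hold CANNTG, 35.7% GGGCGG and 13.6% TATAAA. The cyclic AMP response element TGACGTCA, present in 1.79% of all promoters, was in none of the members' windows, and its core TGACG, present in 20.8%, was in that of Ptges3. The GC content is 58% for Hpgd and 47% for Ptgr1, against a median of 52.7% over all promoters. A match describes the letters and is no evidence of a site in use.

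The libraries give the following frame for these values. Gene names in the TPM table stood beside values of other genes and were put back by sorting. Log2 differences of SW033291 then had a Pearson correlation of 0.928 with the authors' deposited table across 6371 genes. These were the genes above a cut-off on the mean normalised count there. Hpgd, Ptges, Ptger1, Ptger4, Slco2a1 and Ptgr1 were under it, so the correlation does not cover them. Within a group, Pearson correlations of log2(TPM + 1) across genes lay between 0.973 and 0.996. TPM keep no record of reads, so the depth of each library and its counting error are unknown. All 10 muscle fibre markers were detected, and their sum lay between 183631 and 239289 TPM. It was lowest in aged vehicle batch 1 replicate 4, where the fibre marker Acta1 stood at 24221 TPM, against 46887 and 50730 TPM in replicates 2 and 3. Red cell markers summed to 3760 TPM in that library and to 2181 TPM in aged vehicle batch 2 replicate 2, against at most 706 TPM in every other library. Neutrophil markers stood apart in 3 libraries: their 10 genes summed to 232 TPM in SW033291 replicate 4, to 779 TPM in aged vehicle batch 2 replicate 2 and to 1763 TPM in aged vehicle batch 1 replicate 4, against at most 22.9 TPM in every other library. Whether the libraries of a group came from different animals is not stated in the labels, and p-values then measure no more than the spread among these libraries. Differences are in log2(TPM + 1), where 1 unit is a doubling for well-expressed genes and the difference of a gene near 1 TPM is understated. P-values are from limma over 11876 genes with Benjamini-Hochberg adjustment, and a gene is called at an adjusted p under 0.05.

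Between genes, the members fell into a high and a low tier on the TPM scale. In young vehicle muscle the highest were Ptges3 at 56.2 ± 9.58 TPM, Cbr1 at 34.3 ± 4.54 TPM and Ptges2 at 32.8 ± 1.53 TPM (SD, n = 4). Abcc4 at 6.05 ± 0.32 TPM and Ptger1 at 6.01 ± 1.71 TPM came next, and Hpgd followed at 2.14 ± 0.68 TPM. Ptgr1, Ptges, Slco2a1 and Ptger4 stood between 0.845 and 1.61 TPM on average, with SDs from 0.272 to 0.750 TPM, so their order was within the spread between libraries. Cbr1 and Ptges2, and Abcc4 and Ptger1, also did not differ in level beyond their spread. In aged vehicle muscle of batch 1 Hpgd was the fourth member by mean level, above Ptger1 and Abcc4.

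**Figure D1:**
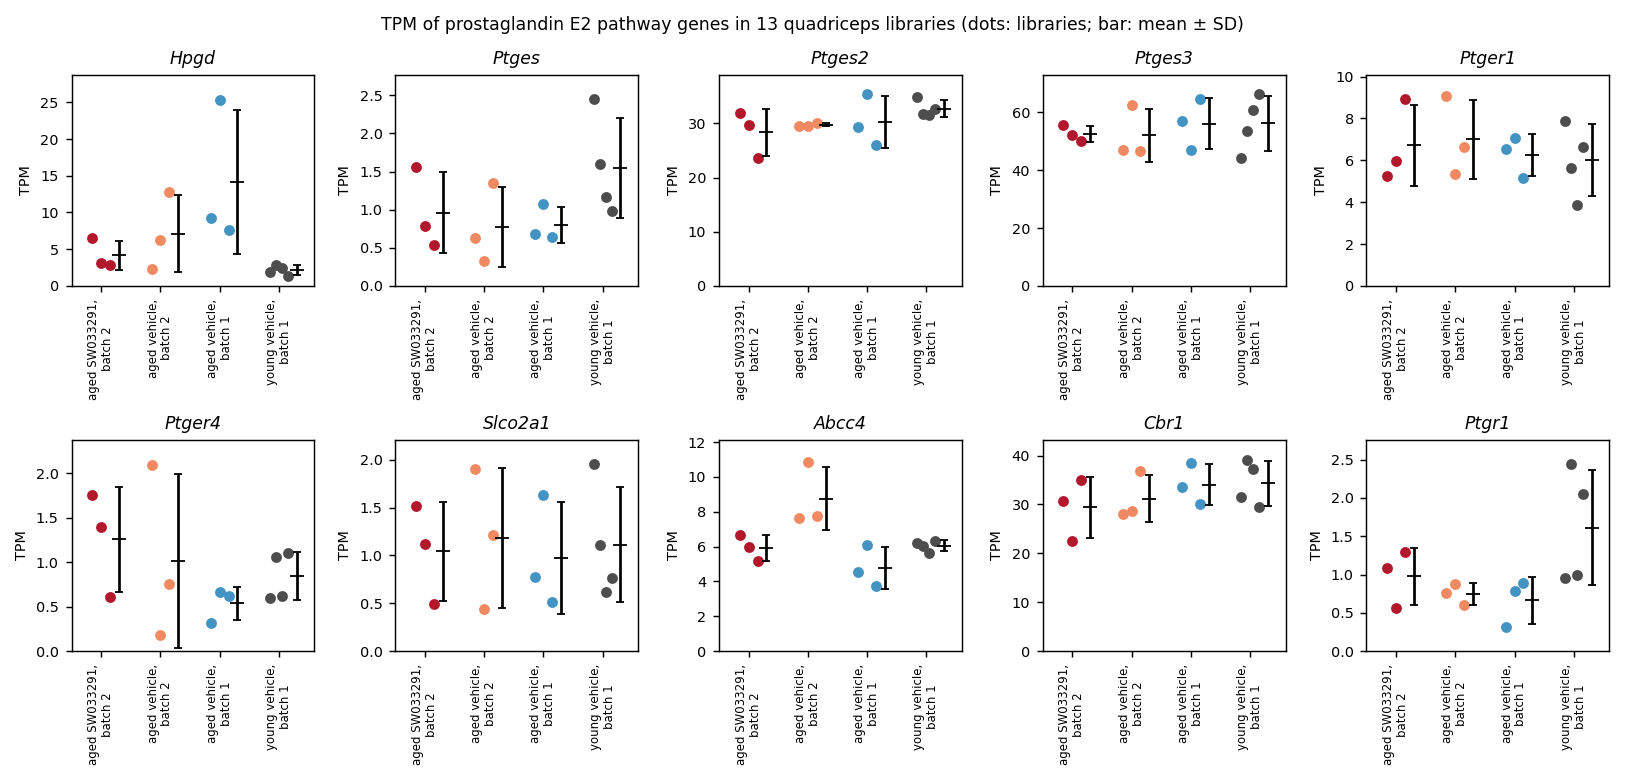
TPM (y axes, linear from 0) of the 10 pathway genes in each of 13 libraries (dots), with the mean ± SD of each group (bars), for aged SW033291 and aged vehicle of batch 2 and aged and young vehicle of batch 1. Hpgd reaches 25.4 TPM in 1 aged vehicle library and stays at or under 2.87 TPM in the 4 young libraries, while Ptges2, Ptges3 and Cbr1 differ little between groups.

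Within batch 1, aged and young vehicle muscle were compared to ask how the pathway differs with age. Hpgd, the degrading enzyme, was higher in each aged library than in any young one. It stood at 9.31, 25.4 and 7.59 TPM in aged vehicle replicates 2, 3 and 4, against 1.89, 2.87, 2.49 and 1.32 TPM in young replicates 1, 3, 4 and 5. The groups did not overlap, and replicate 3 stood far above the other aged libraries. The means were 14.1 ± 9.81 TPM (SD, n = 3) in aged and 2.14 ± 0.68 TPM (SD, n = 4) in young muscle. The log2 difference was 2.10 (SE 0.45, 95% interval 1.13 to 3.08), 4.30-fold on this scale, and the limma adjusted p of 0.0598 missed the threshold. In the authors' deposited table, made with DESeq2, Hpgd has a log2 fold change of 2.22 (SE 0.47) and an adjusted p of 3.35e-04. Which libraries entered that table is not stated, so it may rest on other libraries than this comparison. Without aged vehicle replicate 4 the limma difference was 2.42 (adjusted p 0.0471), and without replicate 3, the highest, it was 1.61 (adjusted p 0.167). Leaving out aged vehicle batch 2 replicate 2 or 8, which enter only the estimate of the spread, also brought the limma adjusted p under the threshold, to 0.0359 and 0.0331. Leaving out each of the 13 libraries in turn left Hpgd uncalled in 10 cases, with limma adjusted p up to 0.1875. Of the other alternatives, 11 left it uncalled too, with limma adjusted p up to 0.433.

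The aged vehicle libraries of batch 2 gave further values at the same age and treatment, in another batch. Hpgd stood there at 2.36, 6.23 and 12.8 TPM in replicates 2, 3 and 8. Of all 6 aged vehicle libraries, 5 were above the highest young library, and batch 2 replicate 2 was within the young range. Set against young muscle, the batch 2 libraries alone had a log2 difference of 1.17 (limma adjusted p 0.10), in which age and batch cannot be told apart. With aged vehicle of both batches the difference was 1.64 (SE 0.41, limma adjusted p 0.0486). Young muscle exists in batch 1 only and batch was not modelled, so this contrast also mixes age with batch in part. The libraries with the highest Hpgd and those with the highest neutrophil sums shared 0 of the top 3, 2 of the top 4 and 3 of the top 5. For macrophage marker sums the shared libraries were 1 of the top 3, 1 of the top 4 and 2 of the top 5. In the 3 libraries in which neutrophil markers stood apart, Hpgd was at 3.14, 2.36 and 7.59 TPM. All 8 neutrophil markers that were tested had a log2 difference above 0 with age, as had 7266 of all 11876 genes, and none of the 8 was called. The summed neutrophil markers stood at 0.99, 5.45 and 1763 TPM in aged vehicle batch 1 replicates 2, 3 and 4. Young libraries stood between 1.01 and 3.13 TPM, so replicate 4 alone was far above them. The part of neutrophils or macrophages in the Hpgd values was not tested.

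Among the genes tested, Hpgd ranked low in young muscle and near the middle in aged muscle of batch 1. It stood above 52.4%, 71.2% and 42.8% of the tested genes in aged vehicle batch 1 replicates 2, 3 and 4, against 15.6%, 23.5%, 24.4% and 12.4% in the young replicates. Over the 13 libraries its highest TPM was 19.2-fold its lowest, and 110 of the 11876 tested genes had a larger range in log2(TPM + 1). For the other 9 members the highest value was between 1.5-fold and 11.6-fold the lowest, with the widest ratios in genes near or under 1 TPM.

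Ptgr1, which reduces the keto form that 15-PGDH produces, was lower in each aged library. It stood at 0.31, 0.79 and 0.89 TPM in aged vehicle replicates 2, 3 and 4, against 0.96, 2.44, 0.99 and 2.05 TPM in young replicates 1, 3, 4 and 5. The groups did not overlap, but the 2 lowest young libraries, at 0.96 and 0.99 TPM, stood close to the highest aged one, at 0.89 TPM. The log2 difference was -0.62 (SE 0.25), with an unadjusted p of 0.0259 and a limma adjusted p of 0.386, so it was not called. All 6 aged vehicle libraries, those of batch 2 at 0.76, 0.88 and 0.60 TPM included, were below the lowest young library. Ptgr1 has a log2 fold change of -1.33 (SE 0.44) and an adjusted p of 0.0630 in the authors' deposited table. The level is low, and a difference between genes near 1 TPM is understated on the log2(TPM + 1) scale.

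No synthase was called with age. Ptges, the inducible synthase, stood at 0.68, 1.07 and 0.64 TPM in aged vehicle replicates 2, 3 and 4, against 2.45, 1.60, 1.17 and 0.98 TPM in young replicates 1, 3, 4 and 5. The groups overlapped through aged replicate 3, and the log2 difference was -0.48 (SE 0.27, limma adjusted p 0.623). The authors' deposited table gives -1.23 (SE 0.43, adjusted p 0.0832). The ratio of Hpgd to Ptges TPM within a library lay between 11.9 and 23.7 in aged vehicle muscle of batch 1, between 3.75 and 18.9 in aged vehicle muscle of batch 2, and between 0.771 and 2.13 in young muscle. Both genes of this ratio are members, and it adds no measurement of its own.

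Ptges2, a constitutive synthase, stood at 29.3, 35.4 and 26.0 TPM in aged vehicle replicates 2, 3 and 4, against 34.9, 31.8, 31.6 and 32.7 TPM in young replicates 1, 3, 4 and 5. Of the 6 aged vehicle libraries, 5 were below the lowest young library and 1, batch 1 replicate 3, was above the highest. Ptges3, which is also the cochaperone p23, stood at 56.9, 46.8 and 64.6 TPM in aged and at 44.2, 53.4, 60.9 and 66.3 TPM in young libraries. Neither gene was called, with log2 differences of -0.12 (SE 0.13) and 0.00082 (SE 0.16). Ptges3 has near-identical pseudogenes, so its level depends on how reads were shared among the copies. The 95% intervals were -0.40 to 0.15 for Ptges2 and -0.33 to 0.34 for Ptges3.

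Of the receptors, Ptger1, which signals through calcium, stood at 6.52, 7.06 and 5.13 TPM in aged vehicle replicates 2, 3 and 4 and at 7.89, 5.64, 3.85 and 6.65 TPM in young replicates 1, 3, 4 and 5. The aged values lay inside the young range. Ptger4, which raises cyclic AMP, stood at 0.32, 0.67 and 0.62 TPM in aged and at 0.60, 1.06, 0.62 and 1.10 TPM in young libraries, again with overlap. The log2 differences were 0.07 (SE 0.24) for Ptger1 and -0.26 (SE 0.30) for Ptger4, neither called. Ptger2, the other receptor that raises cyclic AMP, did not exceed 0.29 TPM in any library and was not tested.

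The carriers and Cbr1 also overlapped. Slco2a1, the uptake carrier, stood at 0.77, 1.63 and 0.51 TPM in aged and at 1.96, 1.11, 0.62 and 0.76 TPM in young libraries. Abcc4, an export pump, stood at 4.55, 6.10 and 3.72 TPM in aged and at 6.22, 6.03, 5.62 and 6.34 TPM in young libraries, with aged replicate 3 inside the young range and the other 2 below it. Cbr1, a carbonyl reductase that can turn prostaglandin E2 into prostaglandin F2 alpha, stood at 33.7, 38.5 and 30.1 TPM in aged and at 31.5, 39.1, 37.2 and 29.5 TPM in young libraries. None was called, with log2 differences of -0.10 (SE 0.30) for Slco2a1, -0.30 (SE 0.17) for Abcc4 and -0.01 (SE 0.16) for Cbr1.

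Counted together, 0 of the 10 members were called with age by limma, where 0.455% of all genes tested were (54 of 11876). Without overlap of the groups stood 2 members, Hpgd higher and Ptgr1 lower, against 11.6% of all genes (8.85% higher and 2.7% lower). These were also the 2 with an unadjusted p under 0.05, against 9.92% of all genes. The median log2 difference of the members was -0.11, and that of all genes was 0.06.

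**Figure D2:**
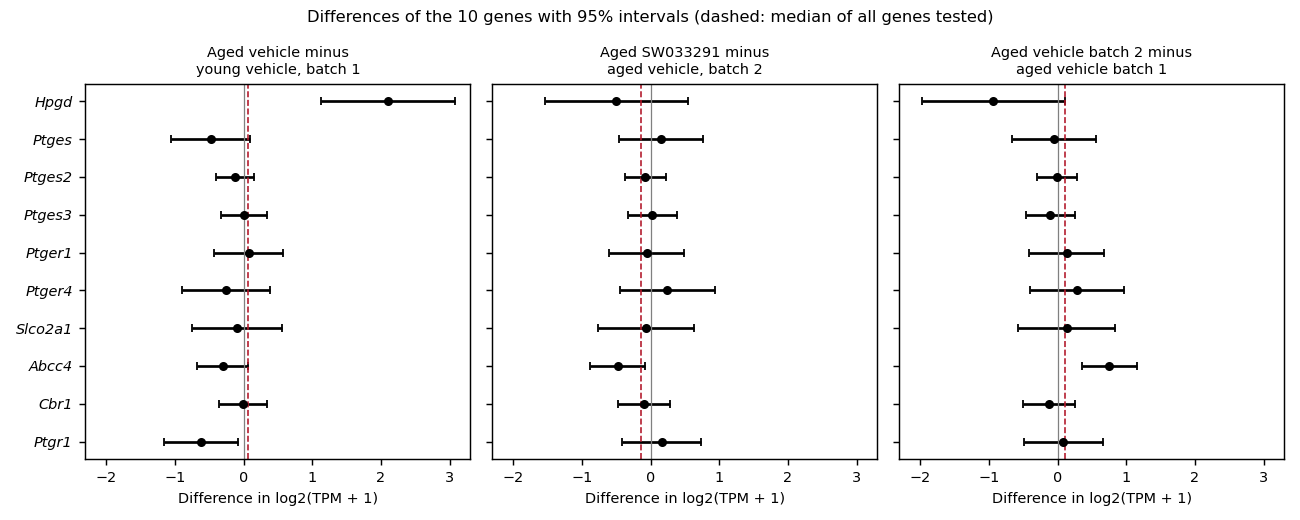
Log2 differences of the 10 genes with 95% intervals from limma (x axes, log2(TPM + 1)), for aged against young vehicle in batch 1, aged SW033291 against aged vehicle in batch 2, and batch 2 against batch 1 in aged vehicle muscle. Dashed lines mark the median of all genes tested. The Hpgd difference with age is 2.10, and Abcc4 is at -0.48 with SW033291 and at 0.76 between the batches.

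The comparison of SW033291 with vehicle in aged muscle of batch 2 asks whether inhibition of 15-PGDH goes with other transcript levels of its own pathway. The 2 groups overlapped for Hpgd and for each other member except Abcc4. Hpgd stood at 6.47, 3.14 and 2.83 TPM in SW033291 replicates 1, 4 and 6, against 2.36, 6.23 and 12.8 TPM in vehicle replicates 2, 3 and 8. Vehicle replicate 8 was above all treated libraries and vehicle replicate 2 below them. The log2 difference was -0.50 (SE 0.48, 95% interval -1.54 to 0.54, limma adjusted p 0.705), or -0.37 beyond the median of all genes. It was -1.02 without vehicle replicate 2 and -0.0052 without vehicle replicate 8, so its size rests on single vehicle libraries. In the authors' deposited table Hpgd has a log2 fold change of -0.77 (SE 0.58) and an unadjusted p of 0.187.

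Abcc4 was lower in each treated library. It stood at 6.67, 5.98 and 5.18 TPM in SW033291 replicates 1, 4 and 6, against 7.65, 10.8 and 7.74 TPM in vehicle replicates 2, 3 and 8. The groups did not overlap, although treated replicate 1 was within 1 TPM of the lowest vehicle library. The log2 difference was -0.48 (SE 0.18, unadjusted p 0.0217, limma adjusted p 0.418), or -0.35 beyond the median, and it was not called. The authors' deposited table gives -0.40 (SE 0.24, unadjusted p 0.0973), the lowest p of the 10 members there. Young muscle of batch 1 stood between 5.62 and 6.34 TPM, and treated and young muscle differ in batch as well, so batch and group cannot be told apart there.

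The synthases overlapped. Ptges stood at 1.56, 0.78 and 0.54 TPM in SW033291 replicates 1, 4 and 6, against 0.63, 0.33 and 1.35 TPM in vehicle replicates 2, 3 and 8. Ptges2 stood at 31.9, 29.7 and 23.5 TPM in treated libraries, against 29.6, 29.6 and 30.1 TPM in vehicle libraries, a group with an SD of 0.269 TPM. Ptges3 stood at 55.5, 52.1 and 50.2 TPM in treated libraries, against 46.8, 62.6 and 46.7 TPM in vehicle libraries. For each of the 3 synthases, treated and vehicle values were interleaved, and the log2 differences were 0.15 (SE 0.28), -0.08 (SE 0.14) and 0.03 (SE 0.17) in the order given.

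Ptger4 and Slco2a1 each had 1 library per group that stood low. Ptger4 stood at 1.76, 1.40 and 0.61 TPM in SW033291 replicates 1, 4 and 6, against 2.09, 0.18 and 0.76 TPM in vehicle replicates 2, 3 and 8. Slco2a1 stood at 1.52, 1.12 and 0.49 TPM in treated libraries, against 1.90, 0.44 and 1.21 TPM in vehicle libraries. Both genes were lowest in treated replicate 6 and vehicle replicate 3 of their groups. Ptger1 stood at 5.25, 5.97 and 8.92 TPM in treated libraries, against 9.06, 5.34 and 6.65 TPM in vehicle libraries, with the highest value of one group close to that of the other. The log2 differences of Ptger4, Slco2a1 and Ptger1 were 0.24 (SE 0.32), -0.07 (SE 0.33) and -0.06 (SE 0.25).

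Among the remaining enzymes, Ptgr1 stood at 1.08, 0.56 and 1.29 TPM in SW033291 replicates 1, 4 and 6, against 0.76, 0.88 and 0.60 TPM in vehicle replicates 2, 3 and 8. Treated replicates 1 and 6 were above each vehicle library and replicate 4 below them. Cbr1 stood at 30.7, 22.6 and 34.9 TPM in treated libraries, against 28.1, 28.7 and 36.8 TPM in vehicle libraries. The log2 differences were 0.16 (SE 0.27) for Ptgr1 and -0.09 (SE 0.17) for Cbr1, with overlapping groups in both cases. Ptgr1 has a mean of 3.76 normalised counts in the authors' deposited table of SW033291.

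With limma, 0 of the 10 members and 0 of the 11876 genes tested (0%) were called with SW033291. At an unadjusted p under 0.05 stood 1 member, Abcc4, against 10.3% of all genes (1221). Without overlap stood 1 member, lower with treatment, against 17.1% of all genes, most of them lower too (15.1%). The median log2 difference of the members was -0.07, and that of all genes was -0.13. No member has an unadjusted p under 0.05 in the authors' deposited table.

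Aged vehicle muscle was sequenced in both batches, so these 6 libraries show how much a member differed between batches with age and treatment held the same. Abcc4 differed most clearly. It stood at 7.65, 10.8 and 7.74 TPM in batch 2 replicates 2, 3 and 8, against 4.55, 6.10 and 3.72 TPM in batch 1 replicates 2, 3 and 4. The groups did not overlap, and the log2 difference of 0.76 (SE 0.18, 95% interval 0.36 to 1.15), or 0.65 beyond the median, had a limma adjusted p of 0.0512. It passed the threshold with a pseudocount of 0.1 (0.86, adjusted p 0.0491), with a filter at 5 TPM (adjusted p 0.0434) and without the 20 most abundant genes (0.81, adjusted p 0.0411). The other 7 alternatives of this kind left it uncalled, with limma adjusted p up to 0.389. Leaving out each of the 13 libraries in turn brought it under the threshold in 3 cases and left it uncalled in 10, with limma adjusted p up to 0.213. This comparison and that of SW033291 share the aged vehicle libraries of batch 2, so high Abcc4 there enters both, once as the group on top and once as the one below.

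Hpgd was lower in batch 2 on average, at 7.12 ± 5.26 TPM (SD, n = 3), against 14.1 ± 9.81 TPM in batch 1 (SD, n = 3). The batches overlapped, and the log2 difference was -0.93 (SE 0.48, 95% interval -1.98 to 0.11, limma adjusted p 0.332). Without batch 1 replicate 3 it was -0.44, without batch 2 replicate 2 it was -0.41, and without batch 2 replicate 8 it was -1.43. By mean level the 4 groups were ordered as young vehicle of batch 1 at 2.14 TPM, aged SW033291 of batch 2 at 4.15 TPM, aged vehicle of batch 2 at 7.12 TPM and aged vehicle of batch 1 at 14.1 TPM. Each group overlapped its neighbour in that order, SW033291 and young muscle by 2.83 against 2.87 TPM.

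Among the other 8 members, log2 differences between the batches lay between -0.13 for Cbr1 and 0.28 for Ptger4. With limma, 0 of the 10 members were called between the batches, where 2.25% of all genes were (267). Without overlap stood 1 member, Abcc4, against 16.5% of all genes (11.9% higher in batch 2), and it was the 1 member with an unadjusted p under 0.05, against 18.1% of all genes. The members' median was 0.04, and that of all genes was 0.11.

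For 2 members at low levels, the 3 highest libraries were also the 3 highest in markers of another cell type, pairings that were chosen after their values had been seen. The 3 libraries with the highest Slco2a1, young replicate 1 (1.96 TPM), aged vehicle batch 2 replicate 2 (1.90 TPM) and aged vehicle batch 1 replicate 3 (1.63 TPM), were also the 3 with the highest sum of 10 endothelial markers (234, 212 and 240 TPM). Over groups that sum ranged from 150 to 197 TPM with SW033291, from 153 to 212 TPM in aged vehicle of batch 2, from 122 to 240 TPM in aged vehicle of batch 1 and from 168 to 234 TPM in young muscle, with no marker at 0. Among the top 5 libraries of each, 4 were shared, while aged vehicle batch 2 replicate 3, lowest in Slco2a1, was seventh in endothelial markers. Slco2a1 encodes a carrier that endothelial cells are known to express. The part of these cells in the Slco2a1 values was not tested.

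The 3 libraries with the highest Ptges, young replicates 1 and 3 and SW033291 replicate 1 (2.45, 1.60 and 1.56 TPM), were also the 3 with the highest sum of 8 adipocyte markers (3185, 2176 and 3646 TPM). Over groups the adipocyte sum ranged from 784 to 3646 TPM with SW033291, from 651 to 820 TPM in aged vehicle of batch 2, from 754 to 1378 TPM in aged vehicle of batch 1 and from 639 to 3185 TPM in young muscle. No adipocyte marker was at 0 in a whole group. Beyond these 3 the order differed: the top 5 of each still shared 3, and young replicate 4, among the top 5 of Ptges at 1.17 TPM, was lowest in adipocyte markers at 639 TPM. The part of fat in the Ptges values was not tested.

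Markers of fibro-adipogenic progenitors, the connective tissue cells of muscle, were, like Ptgr1, lower in aged libraries of batch 1. Their 10 genes all had a log2 difference below 0 with age, with a median of -0.60, and none was called. Of all 11876 genes tested, 4610 were below 0. Also below 0 were 10 of 10 endothelial, 9 of 10 macrophage and 7 of 8 adipocyte markers, the last with a median of -0.60. So were 6 of 8 smooth muscle and pericyte markers and 7 of 10 fibre markers. Above 0 were all 8 neutrophil, all 3 mast cell and 5 of 7 red cell markers that were tested. A lower level with age was thus not particular to progenitor markers. The sum of the progenitor markers ranged from 463 to 806 TPM in aged vehicle of batch 1 and from 849 to 1218 TPM in young muscle. The libraries with the highest sum of these markers and those with the highest Ptgr1 shared 1 of the top 3, 2 of the top 4 and 4 of the top 5. SW033291 replicate 6 was lowest of all 13 libraries in these markers, at 429 TPM, and among the top 3 of Ptgr1, at 1.29 TPM. Whether these cells bear on the Ptgr1 values was not tested.

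**Figure D3:**
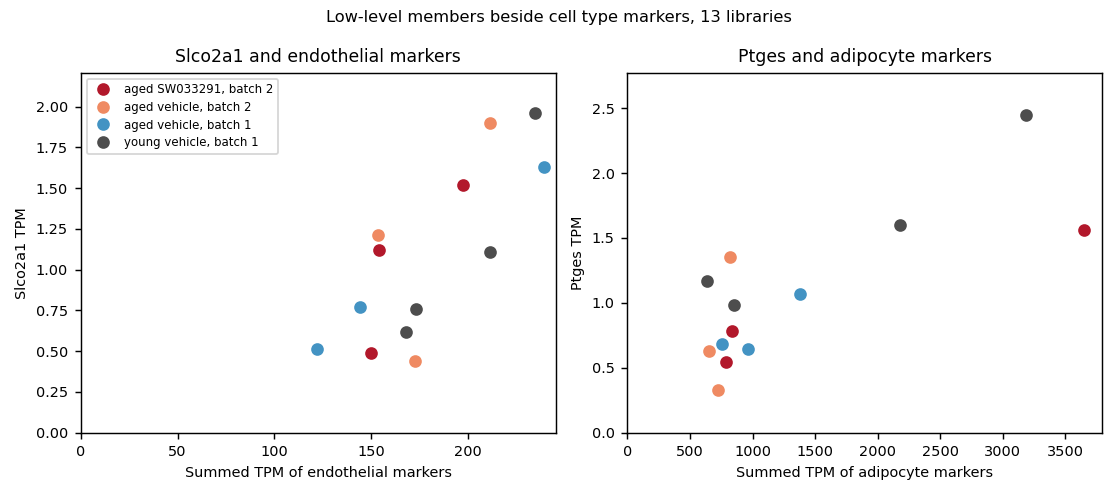
Slco2a1 TPM against the summed TPM of 10 endothelial markers, and Ptges TPM against the summed TPM of 8 adipocyte markers, in each of 13 libraries (points, coloured by group; all axes linear from 0). The libraries with the highest Slco2a1 (1.63 to 1.96 TPM) lie at 212 to 240 TPM of endothelial markers, and those with the highest Ptges (1.56 to 2.45 TPM) at 2176 to 3646 TPM of adipocyte markers.

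The genes around these members were described from a list of 43 other genes of prostanoid and leukotriene metabolism, of which 26 were tested. With limma 0 of the 26 were called in each of the 3 comparisons, where 0.455%, 0% and 2.25% of all genes were for age, SW033291 and batch. At an unadjusted p under 0.05 stood 3, 2 and 3 of them, against 9.92%, 10.3% and 18.1% of all genes. The cyclooxygenases did not stand out. Ptgs1 stood between 0.70 and 2.41 TPM with SW033291, between 1.08 and 2.52 TPM in aged vehicle of batch 2, between 1.65 and 1.98 TPM in aged vehicle of batch 1 and between 1.34 and 2.27 TPM in young muscle. Ptgs2, the inducible cyclooxygenase, was listed at 0 in all 6 libraries of batch 2 and reached at most 0.15 TPM in batch 1, so it was not tested. Libraries of batch 2 listed between 13424 and 14096 genes above 0, against 14201 to 16059 in batch 1. A value of 0 in batch 2 therefore does not show that a transcript was absent.

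Ptger3, a receptor that lowers cyclic AMP, was listed at 0.68, 0.29 and 0.34 TPM in SW033291 replicates 1, 4 and 6 and at 0 in all 3 vehicle libraries of batch 2. In batch 1 it stood at 0.11, 0.63 and 0.80 TPM in aged and at 1.80, 1.08, 0.52 and 0.37 TPM in young libraries, so 0 was listed in no library outside aged vehicle of batch 2. It was under the filter on low values and was not tested, and in the authors' deposited table of SW033291 it has an unadjusted p of 0.0328 at a mean of 1.51 normalised counts.

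Akr1b3, an aldose reductase that can also make prostaglandin F2 alpha, had the largest difference of the list in each comparison. It stood at 58.7, 10.8 and 25.1 TPM in SW033291 replicates 1, 4 and 6, at 44.0, 67.8 and 58.7 TPM in aged vehicle batch 2 replicates 2, 3 and 8, at 27.6, 37.0 and 26.9 TPM in aged vehicle batch 1 replicates 2, 3 and 4, and at 39.6, 67.9, 95.5 and 47.4 TPM in young replicates 1, 3, 4 and 5. Aged batch 1 libraries were below all young ones, and treated replicates 4 and 6 were below all vehicle libraries of batch 2. The log2 differences were -0.95 (SE 0.42) with age, -1.11 (SE 0.45) with SW033291 and 0.87 (SE 0.45) between batches, none called. In the authors' deposited table of SW033291 Akr1b3 has a mean of 0, so its values rest on the TPM table alone.

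Other genes of that list with large age differences were Ltc4s, a leukotriene C4 synthase, at -0.79 (SE 0.57), and Ptgis, the prostacyclin synthase, at -0.48 (SE 0.35). Alox5ap, which helps 5-lipoxygenase and is abundant in neutrophils, stood at 2.44, 3.95 and 2.73 TPM in SW033291 replicates 1, 4 and 6, against 8.55, 3.33 and 7.55 TPM in vehicle replicates 2, 3 and 8. In batch 1 its highest value, 12.8 TPM, was in aged vehicle replicate 4, the library with the highest neutrophil sum. Over groups that sum ranged from 6.51 to 232 TPM with SW033291, from 7.56 to 779 TPM in aged vehicle of batch 2, from 0.99 to 1763 TPM in aged vehicle of batch 1 and from 1.01 to 3.13 TPM in young muscle, where S100a9, Ngp, Camp, Mpo and Elane were at 0. The part of neutrophils in the Alox5ap values was not tested.

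Downstream of the receptors, 35 genes of the cyclic AMP and protein kinase A machinery were listed and 30 tested. With limma 0 were called with age, 0 with SW033291 and 2 between the aged vehicle groups of the batches, against 0.455%, 0% and 2.25% of all genes. At an unadjusted p under 0.05 stood 7, 5 and 8 of the 30, against 9.92%, 10.3% and 18.1% of all genes. Both calls were higher in batch 2. Adcy9, an adenylyl cyclase, which makes cyclic AMP, stood at 27.7, 32.8 and 21.5 TPM in batch 2, against 12.98, 14.5 and 15.6 TPM in batch 1, a log2 difference of 0.87 (SE 0.15, limma adjusted p 0.0169). Pde4b, a phosphodiesterase, which degrades it, stood at 82.0, 116.9 and 68.4 TPM in batch 2, against 34.9, 37.2 and 56.5 TPM in batch 1, a log2 difference of 1.03 (SE 0.25, limma adjusted p 0.0471). Leaving out each of the 13 libraries in turn ended the call of Adcy9 in 3 cases and that of Pde4b in 10.

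In SW033291 muscle the same 2 genes did not overlap with vehicle of batch 2 and were not called. Adcy9 stood at 16.8, 19.0 and 18.4 TPM in treated replicates 1, 4 and 6, with a log2 difference of -0.55 (SE 0.15, limma adjusted p 0.394). Pde4b stood at 51.8, 40.6 and 66.8 TPM there, with a log2 difference of -0.73 (SE 0.25, limma adjusted p 0.418). As with Abcc4, the aged vehicle libraries of batch 2 stood above both the treated libraries and those of batch 1, and the comparisons share them. In the authors' deposited table of SW033291, Adcy9 has a log2 fold change of -0.46 (SE 0.17, unadjusted p 0.00688) and Pde4b one of -0.56 (SE 0.20, unadjusted p 0.00412).

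With age, the largest difference of the machinery was in Pde4a, another cyclic AMP phosphodiesterase, at 16.4, 24.5 and 15.2 TPM in aged vehicle replicates 2, 3 and 4, against 38.1, 29.9, 35.2 and 33.2 TPM in young replicates 1, 3, 4 and 5. The groups did not overlap, and the log2 difference was -0.85 (SE 0.18, limma adjusted p 0.0598). In the same contrast it passed the threshold with a filter at 5 TPM, with median-of-ratios scaling, with quantile normalization and without the 20 most abundant genes. It also passed without aged vehicle batch 1 replicate 3 (-1.06, limma adjusted p 0.0247) and without SW033291 replicate 6 (limma adjusted p 0.0456). Leaving out each of the 13 libraries in turn left it uncalled in 11 cases, with limma adjusted p up to 0.176. Of the other alternatives, 6 left it uncalled too, with limma adjusted p up to 0.999. In the authors' deposited table it has a log2 fold change of -0.87 and an adjusted p of 1.54e-05. Pde8a, Akap6 and Adcy2, other genes of the machinery, have DESeq2 adjusted p of 0.0109, 0.0128 and 0.0289 there. Each is higher in aged muscle in that table, and Pde7a has 0.0667. Prkar2b, a regulatory subunit of protein kinase A, was highest in the same 3 libraries as the adipocyte markers, at 12.46 TPM in SW033291 replicate 1 and at 12.3 and 11.3 TPM in young replicates 1 and 3, and whether fat bears on it was not tested.

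Of 18 genes known to respond to cyclic AMP, 14 were tested and 0 were called by limma in each comparison, against 0.455%, 0% and 2.25% of all genes for age, SW033291 and batch. At an unadjusted p under 0.05 stood 5, 1 and 1 of the 14, against 9.92%, 10.3% and 18.1% of all genes. Their median log2 difference with age was 0.41, against 0.06 for all genes. Junb, a subunit of the transcription factor AP-1, stood at 16.6, 18.5 and 19.8 TPM in aged and at 7.74, 8.83, 8.93 and 7.33 TPM in young libraries, a log2 difference of 1.07 (SE 0.29, limma adjusted p 0.143). Egr1, an immediate early transcription factor, had a log2 difference of 1.00 (SE 0.34) and Btg2, an antiproliferative gene, one of 0.95 (SE 0.30). Both were without overlap and not called by limma. Junb, Egr1 and Sik1 of this list have DESeq2 adjusted p of 0.00301, 0.0194 and 0.00626 in the authors' deposited age table. Each is higher in aged muscle there. Crem, Btg2 and Fos have 0.0892, 0.0893 and 0.0927. With SW033291 the largest difference was in Irs2, an adaptor of the insulin receptor, at 3.48, 3.8 and 3.43 TPM in treated and at 7.45, 6.47 and 4.11 TPM in vehicle libraries, a log2 difference of -0.59 (SE 0.23, limma adjusted p 0.434).

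The genes whose profile was nearest to that of Hpgd were ranked by the root mean square difference between log2(TPM + 1) values over the 13 libraries, each centred on its own mean. Over 11875 genes the median of this distance was 0.996. The 6 nearest were Cpne2 at 0.388, Chrna1 at 0.531, Nfkb2 at 0.539, Aif1l at 0.550, Gadd45a at 0.573 and Sh2d4a at 0.574. Cpne2 encodes a calcium-dependent membrane-binding protein, Chrna1 the alpha subunit of the muscle acetylcholine receptor, Nfkb2 a subunit of NF-kappa-B, Aif1l an actin-binding protein and Gadd45a a stress-induced growth arrest protein. They were chosen for their likeness over these libraries, so their values are a description.

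Cpne2 stood at 17.8, 10.6 and 7.05 TPM in SW033291 replicates 1, 4 and 6, at 14.8, 16.2 and 24.4 TPM in aged vehicle batch 2 replicates 2, 3 and 8, at 25.4, 48.1 and 19.99 TPM in aged vehicle batch 1 replicates 2, 3 and 4, and at 6.00, 4.76, 5.18 and 4.14 TPM in young replicates 1, 3, 4 and 5. Like Hpgd it was highest in aged vehicle batch 1 replicate 3 and, within batch 2, in vehicle replicate 8. Chrna1 stood at 11.2, 6.51 and 7.71 TPM with SW033291, at 10.8, 11.1 and 17.2 TPM in aged vehicle of batch 2, at 12.8, 23.1 and 8.43 TPM in aged vehicle of batch 1 and at 5.60, 4.98, 6.24 and 5.97 TPM in young libraries. It shared both of these high libraries with Hpgd. Nfkb2 did so too, at 23.9 and 23.5 TPM, while Sh2d4a was highest in aged vehicle batch 2 replicate 8, at 11.7 TPM, and Gadd45a was highest within batch 2 in vehicle replicate 3, at 172 TPM. With Pearson correlation as the measure of likeness, 2 of the 6 genes, Cpne2 and Chrna1, remained on the list.

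**Figure D4:**
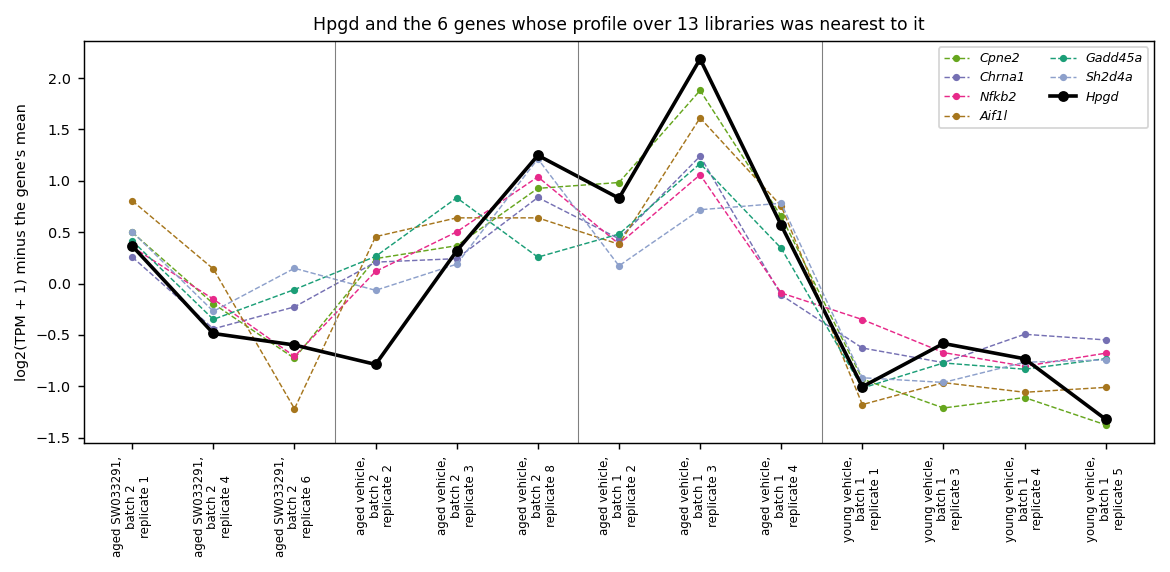
Log2(TPM + 1) minus each gene's own mean (y axis) in 13 libraries (x axis, grouped as aged SW033291 and aged vehicle of batch 2, then aged and young vehicle of batch 1), for Hpgd (black) and the 6 genes nearest to it (dashed). Lines only join the points of a gene. All 7 genes lie below their mean in the 4 young libraries, and Hpgd, unlike the 6, is also well below its mean in aged vehicle batch 2 replicate 2, at 2.36 TPM.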

How the data were processed

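RNA of whole quadriceps lysates was analysed in 13 libraries in 4 groups, which follow the labels. The submitters' processing notes name STAR, RSEM, DESeq2, DESeq and the build mm9, without versions or roles. The authors deposited TPM for 24015 genes in a single table, and tables of their own comparisons with 813 genes for age and 24013 for SW033291. Per the file headers, these comparisons hold a log2 fold change, a p-value, a test statistic (a score that was not used) and a mean normalised count (a signal). Which libraries and covariates entered them is not stated. The highest adjusted p in the age table is 0.0999, so it may hold selected genes only.

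In the TPM table, names and values had come apart. Once 27 names turned into dates had been restored, the names were sorted by their bytes and assigned to the values in that order. The log2 differences of SW033291 then had a Pearson correlation of 0.928 with those of the authors' deposited table, against -0.012 before sorting. This check held the 6371 genes above a cut-off on the mean normalised count. Of the 813 genes in the age table, 99.9% had the same direction in aged vehicle of both batches against young vehicle. The Pearson correlation of their log2 differences was 0.783. That contrast mixes age with batch and is not the age comparison within batch 1.

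The tests ran on log2(TPM + 1) in limma 3.58.1 (R 4.3.3). Genes that reached 1 TPM in at least 3 libraries were kept, 11876 in all. One model held a coefficient per group, with moderated and trended variances, and used every library. Benjamini-Hochberg adjustment covered all genes of a comparison, and 0.05 was the threshold. The script was tested on simulated data. TPM keep no depth, so no counting interval is given. Alternatives were other pseudocounts, filters, scalings and models, other aged groups and leaving out each library. Replicate numbers were not treated as pairs. The members and gene lists were chosen with earlier results of these data known. The genes named come from the members, the other prostanoid genes with the 6 largest differences per comparison (plus Ptgs1, Ptgs2, Ptger2 and Ptger3), the 3 largest of each cyclic AMP list, called genes, and the 6 genes nearest to Hpgd.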

Additional observations from a re-analysis of the deposited data

Results flagged for a closer look

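Among 43 genes of these lists whose young vehicle libraries were checked for a sample far from the others, 1 was flagged, where chance alone flags about 1 gene in 20. Ptgis, the prostacyclin synthase, stood at 2.87 TPM in young replicate 1, against 3.98, 4.11 and 4.09 TPM in young replicates 3, 4 and 5. The gap to the next library was 0.895 of the range of the group.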

How the results depend on the processing

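Of 688 values of the 10 members under 25 alternatives, 621 kept their direction and their side of the threshold, 11 passed it where they had not, none lost a call, and 56 changed sign. No member was called in the first place, so no call could be lost and the sign changes touched none. Other filters, the model without the trend, the 2 groups alone and leaving out a library outside the comparison leave a member's difference unchanged. Its direction could not turn under those, so the 621 overstate how steady the directions were. The depth of each library is unknown, which limits what can be said of members near 1 TPM. In the authors' deposited table of SW033291 mean normalised counts are 3.76 for Ptgr1, 4.85 for Ptges, 7.13 for Ptger4 and 9.69 for Slco2a1, so few reads stand behind their differences there.

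For age, the 54 calls became 27 without a filter, 24 with the 2 groups alone and 31 without the trend. They became 297 with aged vehicle of both batches and 1679 with that of batch 2, contrasts that mix age with batch. Hpgd had a log2 difference of 1.64 with both batches and was the 1 member called there. With both batches and with batch 2, cyclic AMP machinery had 2 and 7 calls, cyclic AMP-responsive genes 1 and 2, and other prostanoid genes 5 with batch 2. The machinery had 1 call, Pde4a, with a filter at 5 TPM, with either scaling and without the 20 most abundant genes, and the responsive genes had 1, Junb, with the 2 groups alone. For SW033291 the calls were 4 with a pseudocount of 0.1 and 1 without the trend. For batch, the 267 calls became 144 with median-of-ratios scaling, 98 with quantile normalization, 1 with the 2 groups alone and 112 without the trend. Of the 267 calls 204 were higher and 63 lower in batch 2, against 46 and 98 with median-of-ratios scaling and 53 and 45 with quantile normalization. With age 44 were higher and 10 lower, against 36 and 20 with median-of-ratios scaling, 41 and 30 with quantile normalization, and 35 and 28 without the 20 most abundant genes. The 2 calls of the machinery became 1 without a filter, with either scaling or without the trend, and 0 with the 2 groups alone. Abcc4 was the 1 member called for batch with a pseudocount of 0.1, with a filter at 5 TPM and without the 20 most abundant genes. The cause of these shifts was not tested.

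Some groups share replicate numbers. Deviations of same-numbered libraries had correlations of 0.17 and 0.04 for age and of -0.15 and -0.06 for batch, so the numbers were not taken as pairs. With the replicate block, age had 6 calls and batch 905, among them 1 member, 3 other prostanoid genes and 5 of the machinery. Hpgd was then 2.03 with age (limma adjusted p 0.433) and -1.74 between batches (limma adjusted p 0.0142). Ptges3 was -0.052 with age and 0.068 for batch, and Slco2a1 was 0.11 and -0.078.

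Signs that turned were, for age, Ptges3 at -0.070 with median-of-ratios scaling, -0.082 with quantile normalization, -0.10 without the 20 most abundant genes, -0.053 with both batches and -0.11 with batch 2. Without the 20 most abundant genes Ptger1 was -0.011 and Ptgs1 -0.018, and with quantile normalization Ptgs1 was -0.0022. With batch 2 as the aged group Ptger4 was 0.022, Slco2a1 0.030, Abcc4 0.45 and Ptgs1 -0.16, and with both batches Abcc4 was 0.074 and Ptgs1 -0.056. For SW033291, median-of-ratios scaling and quantile normalization gave 0.066 and 0.061 for Ptges2, 0.070 and 0.091 for Ptger1, and 0.048 and 0.034 for Cbr1, and quantile normalization gave 0.0011 for Slco2a1. For batch, quantile normalization gave 0.012 for Ptges and -0.011 for Ptger1. The name order as deposited gave a correlation of -0.012 with the authors' table.

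Leaving out 1 library at a time gave 19 to 92 calls for age, with 19 without young replicate 1 or aged replicate 2, 26 and 21 without young replicates 4 and 5, and 92 without aged replicate 4. It gave 0 to 1 for SW033291, with 1 without treated replicate 4. It gave 18 to 1643 for batch, with 1643 without batch 1 replicate 4, 478 without batch 2 replicate 8, 18 without batch 1 replicate 2, 21 without batch 2 replicate 2 or 3, and 119 to 137 without a young library. Members called ranged from 0 to 1 for age and for batch, machinery from 0 to 1 and from 0 to 5, and for batch other prostanoid genes from 0 to 3 and responsive genes from 0 to 1. Hpgd ranged from 1.61 to 2.42 with age. Ranges that crossed 0 were, for age, Ptges3 -0.11 to 0.12, Ptger1 -0.094 to 0.20, Slco2a1 -0.33 to 0.075, Cbr1 -0.097 to 0.076, Alox5ap -0.14 to 0.72 and Ptgs1 -0.036 to 0.13. For SW033291 they were Ptges -0.056 to 0.38, Ptges2 -0.16 to 0.048, Ptges3 -0.043 to 0.17, Ptger1 -0.25 to 0.12, Ptger4 -0.083 to 0.61, Slco2a1 -0.34 to 0.16, Cbr1 -0.23 to 0.078, Ptgs1 -0.17 to 0.33, Prkar2b -0.36 to 1.40 and Fos -0.81 to 0.011. For batch they were Ptges -0.28 to 0.13, Ptges2 -0.11 to 0.11, Ptger1 -0.046 to 0.29, Ptger4 -0.085 to 0.61, Slco2a1 -0.10 to 0.40 and Ptgr1 -0.078 to 0.19.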
